A study of Rattus norvegicus with 18 samples.

Results

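The genes described here are 9 activity-regulated genes of neurons, Arc, Npas4, Homer1, Nptx2, Crem, Rgs2, Plk2, Plk3 and Mas1, followed in rat brain cortex after occlusion of the middle cerebral artery (MCAO). They were taken by name: a spot that is no control and whose gene name, or the rat symbol of whose accession, is one of the 9. All 9 were on the array, through 13 of its 41012 probes, and all 13 probes were among the 28634 probes (24279 gene names) that were bright enough to be tested. The members were chosen by the measured difference between EPO-treated and saline-treated ischemic cortex at 6 h. Their 6 h values in ischemic cortex are therefore a description and carry no test. For other genes limma calls at 6 h are given, from the same arrays.

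Each of the 18 arrays held RNA from the cortex of 1 male Crl:CD(SD)BR rat of 250 to 280 g, labelled with Cy3 in 1 colour. The 6 groups of 3 arrays were ischemia with erythropoietin (EPO) at 2 h, ischemia with saline at 2 h, sham operation without treatment at 2 h, and the same 3 groups at 6 h after MCAO. EPO is the hormone of red cell formation and also binds receptors in the brain. The labels give no dose of EPO, no genotype other than the strain and no age.

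Synaptic activity raises calcium in a neuron, and kinases then activate transcription factors such as CREB and SRF, which switch on a first wave of genes within minutes and further genes later. Some products are themselves transcription factors, such as Npas4, while others act at the synapse, where Arc removes AMPA-type glutamate receptors and the secreted pentraxin Nptx2 clusters them. Ischemia releases glutamate and sets off waves of depolarization in the cortex, and many of these genes are known to respond to both.

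Levels are log2 signal minus the 75th percentile of the array, so 0 is the array's own 75th percentile. A level of one probe cannot be set against that of another. Differences between groups are log2 differences ± the standard error (SE) of a fit over all 18 arrays, and a gene was called where limma's two-sided test gave an adjusted p under 0.05 over all probes tested. For a gene with a pair of probes, the brighter probe stands for the gene. Nothing in the labels says that arrays of a group were technical repeats. The median SE of a difference at 2 h was 0.13 over all probes, and the number of arrays limits the precision.

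Between 61.5% and 80.6% of the probes on an array were well above background. The response to the spike-in RNAs was steeper than 0.9 (log signal per log amount) on 6 arrays: replicate 1 of EPO at 2 h, replicate 3 of EPO at 6 h, replicate 1 of saline at 2 h, replicates 1 and 3 of saline at 6 h, and replicate 1 of sham at 6 h. These 6 arrays had 61.5% to 66.4% of probes above background and the other 12 had 68.6% to 80.6%. The arrays lay on 5 slides, of which slide 5 was scanned on the second of 2 days. Values within a slide and without the 6 steep arrays are given for the results that rest on them.

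Promoter windows (250 bases before to 50 after the start, RefSeq, GRCr8) were found for 8 of the 9 genes, 10 windows in all, of which Crem has 3. None was found for Arc, so the window counts of members do not cover Arc. The genome build behind the probes is not given in the sources used here. CREB binds the cyclic AMP response element TGACGTCA, and also the shorter TGACG that lies inside it. On either strand, TGACGTCA was present in 3 of the 10 windows (2 of Crem, 1 of Plk2), against 1.83% of 33469 promoter windows. TGACG was present in 7 of the 10 windows, those of Nptx2, Crem, Rgs2, Plk2 and Plk3, against 21.2% of all windows. The CArG box of SRF was in 0 of the 10 windows (1.64% of all), CACGTG was in 0 (6.42% of all) and TATAAA was in 1, that of Homer1 (14.2% of all). Windows 2 and 3 of Crem lie inside the gene, 50731 bases and a further 693 bases beyond window 1. The Crem and Plk2 windows below hold the full element, and that of Plk3 is shown for its 2 copies of the shorter form. Capitals mark TGACGTCA and TGACG on the printed strand or its complement.
Crem window 2, chr17:58984547-58984846, plus strand: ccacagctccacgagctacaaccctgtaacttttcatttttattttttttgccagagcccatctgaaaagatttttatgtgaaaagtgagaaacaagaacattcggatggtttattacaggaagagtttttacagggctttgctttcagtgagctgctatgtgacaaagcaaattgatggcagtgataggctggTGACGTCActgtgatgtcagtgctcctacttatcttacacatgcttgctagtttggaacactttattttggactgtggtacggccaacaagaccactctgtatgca
Crem window 3, chr17:58985240-58985539, plus strand: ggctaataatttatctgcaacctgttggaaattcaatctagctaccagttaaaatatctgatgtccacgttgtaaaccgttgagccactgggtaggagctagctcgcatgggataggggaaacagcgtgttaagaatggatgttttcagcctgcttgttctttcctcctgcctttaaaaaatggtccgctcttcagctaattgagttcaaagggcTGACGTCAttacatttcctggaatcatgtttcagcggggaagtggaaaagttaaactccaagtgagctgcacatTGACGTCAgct
Plk2 window, chr2:43702286-43702585, plus strand: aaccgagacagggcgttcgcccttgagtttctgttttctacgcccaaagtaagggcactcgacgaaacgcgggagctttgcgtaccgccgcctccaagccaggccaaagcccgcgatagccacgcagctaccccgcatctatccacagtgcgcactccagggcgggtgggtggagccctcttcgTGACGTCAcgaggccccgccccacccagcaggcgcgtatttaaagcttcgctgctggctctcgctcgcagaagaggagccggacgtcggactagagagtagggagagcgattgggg
Plk3 window, chr5:135848851-135849150, minus strand: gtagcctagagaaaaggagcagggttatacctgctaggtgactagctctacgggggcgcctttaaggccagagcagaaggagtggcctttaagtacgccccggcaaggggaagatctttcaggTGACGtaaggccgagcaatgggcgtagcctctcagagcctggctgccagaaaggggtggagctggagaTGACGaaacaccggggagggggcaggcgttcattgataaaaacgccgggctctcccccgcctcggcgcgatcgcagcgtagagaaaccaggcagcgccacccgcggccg
In Crem window 2 the element covers bases -56 to -49 from the start, and in window 3 it is present from -35 to -28 and again from 40 to 47. In Plk2 it covers -66 to -59, and in Plk3 the shorter form covers -127 to -123 and -59 to -55. These matches are letters in a window, and no factor binding was measured.

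At 2 h, most members were higher in ischemic cortex than in sham cortex with either treatment, and no difference between EPO and saline was called. In EPO-treated ischemia 8 of the 9 members rose against sham, with 0 lower, where 1% of all probes tested were called higher. In saline-treated ischemia 7 of the 9 rose, with 0 lower, where 0.898% of all probes were called higher. The 2 h rise of Arc, Npas4, Crem and Plk3 was already known from these data when the members were chosen. The member counts at 2 h are thus no independent support for a rise. For 8 of the 9 genes every ischemic array lay above every sham array with each treatment, where 7.61% of all probes did so with EPO and 6.67% with saline. The median log2 difference of the 9 was 1.05 with EPO and 1.03 with saline, against -0.07 over all probes in each comparison. Both comparisons use the same 3 sham arrays. On each of the 3 slides that held a saline and a sham array at 2 h, all 9 members were higher with saline. Fitted on the 6 arrays of a comparison alone, which leaves the differences as they are and takes the spread from fewer arrays, limma called 0 of the 9 with EPO and 2, Arc and Npas4, with saline. Among all probes called with EPO, 287 were higher and 95 lower, against 110 and 61 without scaling between arrays. The mean level of 8 markers of striatal neurons at 2 h ran between 0.47 and 0.62 with EPO, 0.17 and 0.74 with saline, and -0.16 and 0.51 in sham cortex, and its part in the rise was not tested. In bulk tissue, fewer cells of a type and less RNA per cell cannot be told apart.

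**Figure D1:**
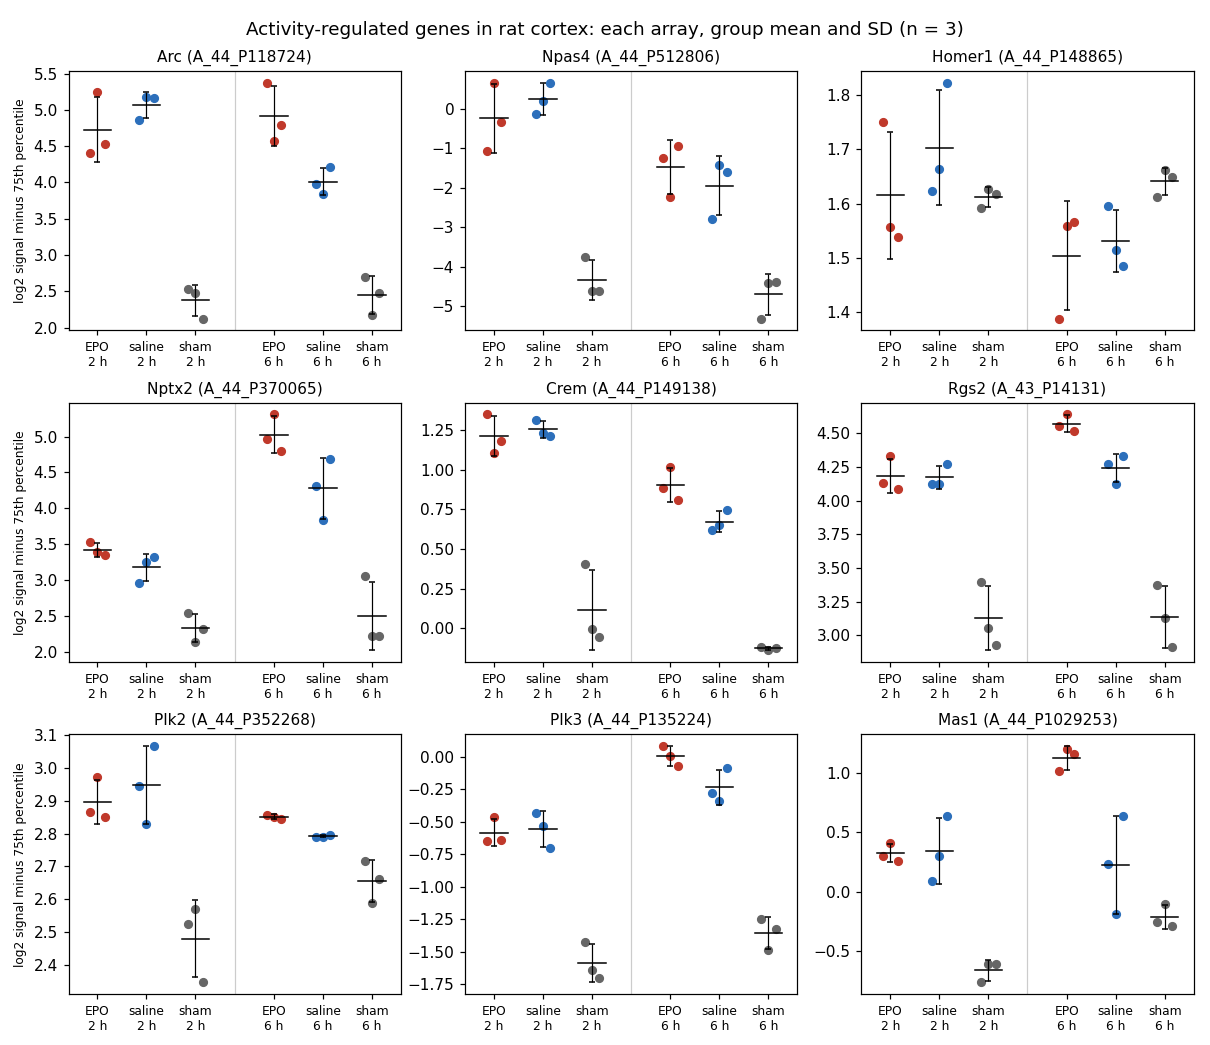
Level of each of the 9 genes (log2 signal minus the array's 75th percentile, vertical axis, own scale per panel) on each array by group; points are arrays, bars the mean and SD (n = 3). Arc and Npas4 lie far above sham in all ischemic groups, while the brighter Homer1 probe stays between 1.39 and 1.82.

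Npas4, a neuronal transcription factor that activity induces directly, rose at 2 h with either treatment. Its levels at 2 h were -1.06, 0.66 and -0.33 in EPO-treated ischemia, -0.14, 0.18 and 0.66 in saline-treated ischemia, and -3.76, -4.63 and -4.63 in sham cortex. All ischemic arrays lay above all sham arrays, and the EPO and saline arrays overlapped. Npas4 rose by 4.09 ± 0.50 with EPO (adjusted p = 0.000584) and by 4.57 ± 0.50 with saline (adjusted p = 0.000217). In sham cortex the probe was well above background on only 1 of 3 arrays at 2 h and on 2 of 3 at 6 h, so the differences are given on the log2 scale only and their size is uncertain. With normexp background correction they were 2.77 with EPO and 3.25 with saline, and with quantile normalization 4.73 and 5.20, and limma called them under these settings too. Within the 3 slides the saline-against-sham difference was 3.61, 4.81 and 5.29.

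Arc, whose product binds the cytoskeleton and the endocytic machinery at synapses, was read by a probe with 10 spots per array, whose median SD within an array was 0.05. Its levels at 2 h were 4.41, 5.24 and 4.53 in EPO-treated ischemia, 4.86, 5.18 and 5.17 in saline-treated ischemia, and 2.53, 2.47 and 2.13 in sham cortex. The ischemic arrays did not overlap the sham arrays, and EPO arrays overlapped saline arrays. Arc was 5.10-fold higher than sham with EPO (log2 2.35 ± 0.24, adjusted p = 0.000148) and 6.47-fold higher with saline (2.69 ± 0.24, adjusted p = 5.5e-05). Within slides 1, 2 and 4 the saline-against-sham difference was 2.33, 2.71 and 3.04.

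Crem encodes activators and repressors of genes with cyclic AMP response elements, and its internal start gives a short repressor that such elements induce. The brighter Crem probe read 1.35, 1.10 and 1.18 in EPO-treated ischemia at 2 h, 1.31, 1.23 and 1.21 in saline-treated ischemia, and 0.40, -0.0014 and -0.05 in sham cortex. Ischemic and sham arrays did not overlap. Crem rose by 1.09 ± 0.10 with EPO (adjusted p = 0.000101) and by 1.14 ± 0.10 with saline (adjusted p = 6.11e-05). The other Crem probe also rose, by 0.51 ± 0.09 (adjusted p = 0.0149) and 0.60 ± 0.09 (adjusted p = 0.00411). The files do not say which Crem transcripts either probe reads.

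Nptx2, a secreted protein that gathers AMPA receptors at synapses on inhibitory neurons, passed the test with EPO only. Its brighter probe read 3.53, 3.39 and 3.35 in EPO-treated ischemia at 2 h, 2.96, 3.25 and 3.32 in saline-treated ischemia, and 2.54, 2.14 and 2.32 in sham cortex. Neither treatment's arrays overlapped sham, and each EPO array was above each saline array, by 0.03 at the nearest. The difference from sham was 1.09 ± 0.24 with EPO (adjusted p = 0.0441) and 0.84 ± 0.24 with saline (adjusted p = 0.131). The direct difference, EPO minus saline, was 0.24 ± 0.24 (adjusted p = 1). The other probe, which followed the brighter one closely, gave 1.08 ± 0.26 with EPO (adjusted p = 0.072) and 0.93 ± 0.26 with saline (adjusted p = 0.128). On that probe the EPO and saline arrays overlapped, with EPO minus saline at 0.15 ± 0.26. The EPO call held under 4 of 18 alternative settings. Without the 6 steep arrays, limma called the saline difference of Nptx2 too (adjusted p = 0.0386).

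Homer1 scaffolds metabotropic glutamate receptors, and activity switches the gene to a short form that uncouples the scaffold. The brighter Homer1 probe, with 10 spots per array, read 1.75, 1.56 and 1.54 in EPO-treated ischemia at 2 h, 1.62, 1.66 and 1.82 in saline-treated ischemia, and 1.59, 1.63 and 1.62 in sham cortex. These groups overlapped, with differences from sham of 0.00 ± 0.07 with EPO (adjusted p = 0.987) and 0.09 ± 0.07 with saline (adjusted p = 0.631). The other Homer1 probe read 1.50, 0.75 and 0.84 with EPO, 0.25, 0.78 and 0.98 with saline, and -0.07, -0.22 and -0.05 in sham cortex. Its ischemic arrays were all above the sham arrays, but the test was not passed, with 1.15 ± 0.29 for EPO (adjusted p = 0.0822) and 0.79 ± 0.29 for saline (adjusted p = 0.269). Which Homer1 transcripts each probe reads is not given in the files.

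**Figure D2:**
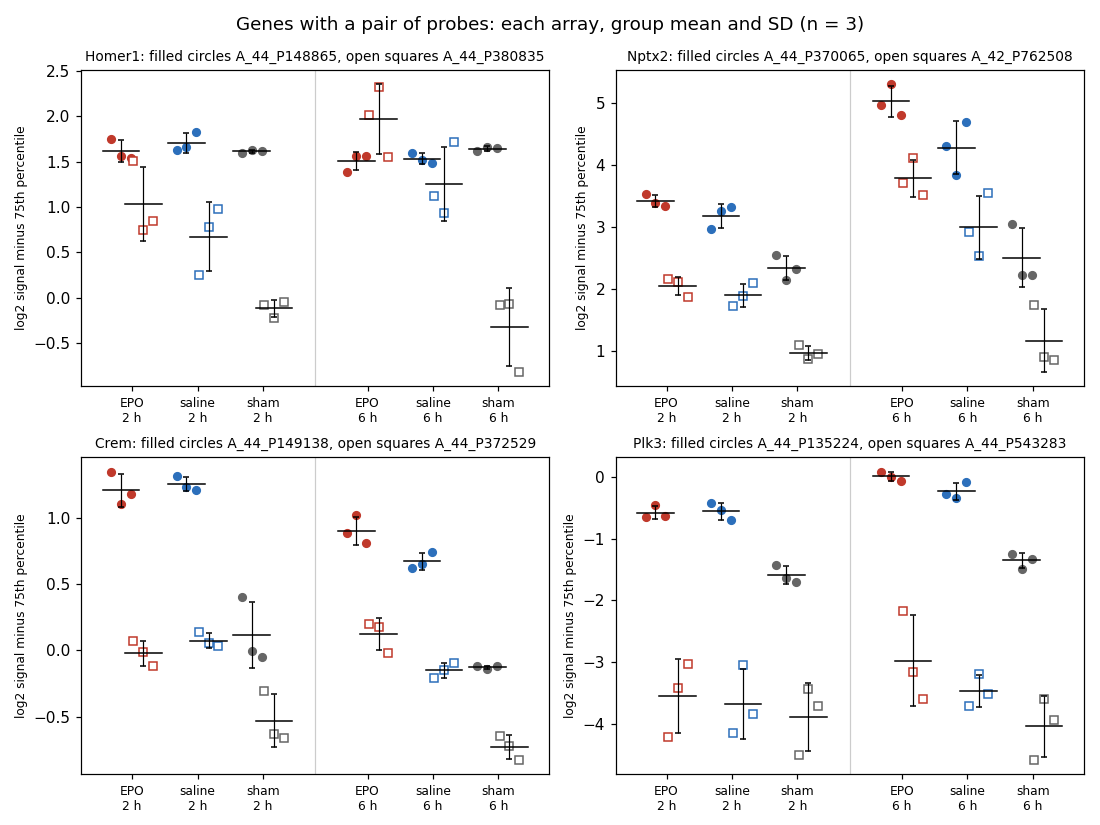
Levels of both probes of Homer1, Nptx2, Crem and Plk3 (log2 signal minus the array's 75th percentile) on each array by group, with mean and SD (n = 3); filled circles are the brighter probe, open squares the other. The Homer1 probes part, one flat near 1.6 and the other reaching 2.32 with EPO at 6 h, while the Nptx2 probes run in parallel.

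Rgs2 shortens signalling by G proteins of the Gq type. It read 4.13, 4.33 and 4.09 in EPO-treated ischemia at 2 h, 4.12, 4.12 and 4.27 in saline-treated ischemia, and 3.40, 3.06 and 2.93 in sham cortex. Ischemic and sham arrays did not overlap, and Rgs2 was 2.07-fold higher with EPO (adjusted p = 0.000548) and 2.06-fold higher with saline (adjusted p = 0.000546).

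The polo-like kinases Plk2 and Plk3 both rose. Plk2, which loosens synapses by marking a spine protein for breakdown, read 2.87, 2.97 and 2.85 in EPO-treated ischemia at 2 h, 2.95, 2.83 and 3.07 in saline-treated ischemia, and 2.52, 2.57 and 2.35 in sham cortex. Its rise was 0.42 ± 0.07 with EPO (adjusted p = 0.00693) and 0.47 ± 0.07 with saline (adjusted p = 0.00295), or 1.34-fold and 1.38-fold. Without the 6 steep arrays the Plk2 differences were 0.43 with EPO and 0.47 with saline, and with fewer arrays limma called neither (adjusted p = 0.211 and 0.176). With slide as a fixed block the Plk2 difference with EPO was 0.42 and not called (adjusted p = 0.148). Without scaling between arrays Plk2 was called with neither EPO (0.31, adjusted p = 0.341) nor saline (0.39, adjusted p = 0.247). Plk3, a kinase of the stress response, read -0.65, -0.46 and -0.64 with EPO, -0.43, -0.53 and -0.70 with saline, and -1.42, -1.64 and -1.70 in sham cortex. For both genes the ischemic arrays lay above all sham arrays. Plk3 rose by 1.01 ± 0.10 with EPO (adjusted p = 0.000141) and by 1.04 ± 0.10 with saline (adjusted p = 9.75e-05). The other Plk3 probe was dim, between -4.58 and -2.17 over the 18 arrays, and its 2 h differences of 0.33 ± 0.43 (adjusted p = 0.704) and 0.21 ± 0.43 (adjusted p = 0.836) were within its spread.

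Mas1, a G protein-coupled receptor for a short angiotensin peptide, read 0.30, 0.41 and 0.26 in EPO-treated ischemia at 2 h, 0.09, 0.30 and 0.64 in saline-treated ischemia, and -0.76, -0.61 and -0.61 in sham cortex. No ischemic array overlapped sham, and the saline arrays spread more widely than the EPO arrays. Mas1 rose by 0.98 ± 0.17 with EPO (adjusted p = 0.00923) and by 1.00 ± 0.17 with saline (adjusted p = 0.00803). With slide as a fixed block the EPO difference of Mas1 was 0.82 and not called (adjusted p = 0.197), nor was it without EPO replicate 2 (adjusted p = 0.0561). Without scaling between arrays Mas1 was called with neither EPO (0.87, adjusted p = 0.0766) nor saline (0.93, adjusted p = 0.0573).

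The direct comparison of EPO with saline at 2 h called 0 of the 9 members, and 0 had an unadjusted p under 0.05 in limma. Of all 28634 probes, 0 were called (0%) and 381 (1.33%) had an unadjusted p under 0.05. The 9 differences, EPO minus saline, ran between -0.48 ± 0.50 for Npas4 and 0.24 ± 0.24 for Nptx2, with a median of -0.04, against 0.00 over all probes. With each array left out in turn, the difference ran between -0.93 and -0.07 for Npas4, between -0.60 and -0.18 for Arc (-0.34 ± 0.24 with all arrays) and between 0.14 and 0.31 for Nptx2. Of the 9 members, 8 had overlapping groups. EPO arrays lay above all saline arrays for 1 member, Nptx2, on its brighter probe only, where 2.42% of all probes did so. Slide 4 was the only one with an array of each treatment at 2 h, and 7 of the 9 members were lower with EPO there, including Arc by 0.64 and Npas4 by 0.99. At this SE, a small difference was not detectable for Npas4 or Arc.

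Sham cortex at 6 h against 2 h had 0 of the 9 members called (0.482% of all probes in either direction), and 4 members had an unadjusted p under 0.05, where 9.03% of all probes did. The 4 were Mas1 (0.45 ± 0.17, adjusted p = 0.414), Plk3 (0.24 ± 0.10, adjusted p = 0.491), Crem (-0.24 ± 0.10, adjusted p = 0.496) and Plk2 (0.17 ± 0.07, adjusted p = 0.439). For Mas1 and Plk2 each sham array at 6 h was above each sham array at 2 h, where 7.3% of all probes were so, and for Crem each was below, where 11.9% were so.

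At 6 h the members stayed above sham in most cases, and most read higher with EPO than with saline. With EPO, 8 of the 9 members lay above all sham arrays and 1 lay below all of them, where 11.8% and 19.2% of all probes did so. With saline, 7 lay above all sham arrays and 1 below, where 10.9% and 21.4% of all probes did so. The median difference from sham was 1.36 with EPO (0.00 over all probes) and 1.10 with saline (-0.13 over all probes). EPO arrays lay above all saline arrays for 7 of the 9 members, where 5.21% of all probes did so, and this is the comparison that chose them, so nothing is read from that count. In it limma called 0 of the 28634 probes (0%), with 1184 (4.13%) at an unadjusted p under 0.05.

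**Figure D3:**
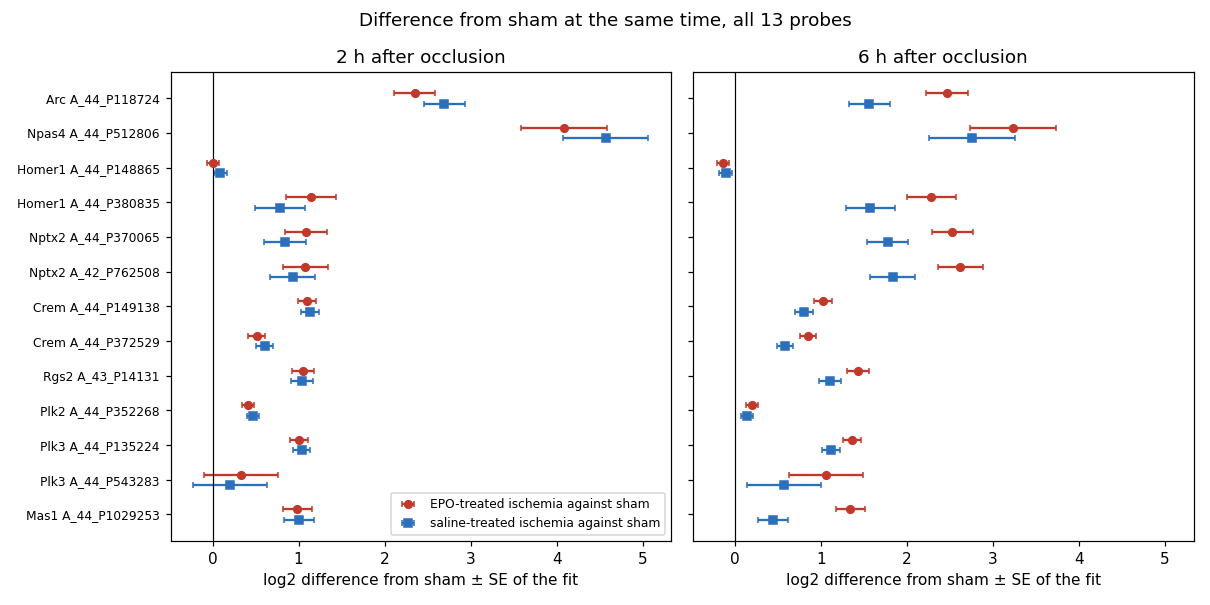
Log2 difference of EPO-treated ischemia (circles) and saline-treated ischemia (squares) from sham at the same time, with the SE of the fit, for all 13 probes (left 2 h, right 6 h). At 2 h the EPO symbol lies to the left of or near the saline symbol for most probes (EPO minus saline between -0.48 for Npas4 and 0.36 for the other Homer1 probe), and at 6 h it lies to the right for all probes except the brighter Homer1 probe, by as little as 0.06 for Plk2.

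Arc read 5.38, 4.58 and 4.80 in EPO-treated ischemia at 6 h, 3.97, 3.84 and 4.21 in saline-treated ischemia, and 2.70, 2.17 and 2.48 in sham cortex. The 3 groups formed separate steps without overlap, with an EPO-minus-saline difference of 0.91 ± 0.24. Arc was 1.06 ± 0.24 lower at 6 h than at 2 h with saline, while with EPO the 2 times differed by 0.19 ± 0.24 and overlapped.

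Npas4 read -1.24, -2.24 and -0.94 with EPO at 6 h, -2.80, -1.43 and -1.61 with saline, and -5.32, -4.42 and -4.38 in sham cortex. EPO and saline overlapped, and both lay above sham. The EPO-minus-saline difference was 0.47 ± 0.50, and it was -0.31 without the 6 steep arrays. At 6 h Npas4 was lower than at 2 h with either treatment, by 1.23 ± 0.50 with EPO and by 2.18 ± 0.50 with saline.

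Crem read 0.88, 1.02 and 0.81 with EPO at 6 h, 0.62, 0.65 and 0.74 with saline, and -0.12, -0.14 and -0.12 in sham cortex. The groups did not overlap, and EPO minus saline was 0.23 ± 0.10, with 0.27 ± 0.09 on the other probe. The brighter probe was lower at 6 h than at 2 h in both ischemic groups, by 0.31 ± 0.10 with EPO and by 0.58 ± 0.10 with saline. On the other Crem probe, 6 h minus 2 h was 0.14 ± 0.09 with EPO, with overlapping arrays, and -0.22 ± 0.09 with saline.

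Nptx2 was higher at 6 h than at 2 h, unlike Npas4 and the brighter Crem probe. Its levels at 6 h were 4.97, 5.31 and 4.81 with EPO, 4.30, 3.84 and 4.69 with saline, and 3.05, 2.23 and 2.22 in sham cortex. Each EPO array was above each saline array on the brighter probe, but on the other probe the lowest EPO array, 3.52, lay just under the highest saline array, 3.54. The 6 h level was 1.61 ± 0.24 above the 2 h level with EPO and 1.10 ± 0.24 above it with saline. EPO minus saline was 0.75 ± 0.24, or 1.68-fold.

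The brighter Homer1 probe read 1.39, 1.56 and 1.57 with EPO at 6 h, 1.60, 1.52 and 1.48 with saline, and 1.61, 1.66 and 1.65 in sham cortex. It was the member below sham, by 0.14 ± 0.07 with EPO and by 0.11 ± 0.07 with saline. The other probe read 2.02, 2.32 and 1.55 with EPO, 1.12, 0.94 and 1.71 with saline, and -0.08, -0.06 and -0.81 in sham cortex. On that probe ischemic arrays were far above sham, by 2.28 ± 0.29 with EPO and 1.57 ± 0.29 with saline. EPO and saline overlapped on both probes, with EPO minus saline at -0.03 ± 0.07 on the brighter and 0.71 ± 0.29 on the other.

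Rgs2 read 4.55, 4.64 and 4.52 with EPO at 6 h, 4.27, 4.12 and 4.33 with saline, and 3.37, 3.13 and 2.91 in sham cortex. The groups did not overlap, with EPO minus saline at 0.33 ± 0.13. Plk3 read 0.08, 0.00 and -0.07 with EPO, -0.28, -0.34 and -0.09 with saline, and -1.25, -1.49 and -1.33 in sham cortex. The nearest EPO and saline arrays of Plk3 were only 0.02 apart, and the mean difference was 0.24 ± 0.10. Plk2 read 2.86, 2.85 and 2.84 with EPO, 2.79, 2.79 and 2.80 with saline, and 2.72, 2.59 and 2.66 in sham cortex. Plk2 thus had groups that did not overlap although EPO minus saline was only 0.06 ± 0.07, or 1.04-fold. Without the 6 steep arrays EPO minus saline was 0.47 for Rgs2, 0.39 for Plk3 and 0.06 for Plk2. Within slides 2, 3 and 5 it was 0.29, 0.51 and 0.19 for Rgs2. For Plk3 the same slides gave 0.36, 0.35 and 0.02. The difference of 6 h from 2 h for Plk3 was 0.59 ± 0.10 with EPO and 0.32 ± 0.10 with saline, without overlap. For Rgs2 it was 0.39 ± 0.13 with EPO, without overlap, and 0.07 ± 0.13 with saline, with overlap. For Plk2 it was -0.05 ± 0.07 with EPO, with overlap, and -0.15 ± 0.07 with saline, without overlap.

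Mas1 read 1.01, 1.20 and 1.16 with EPO at 6 h, 0.23, -0.19 and 0.64 with saline, and -0.26, -0.10 and -0.29 in sham cortex. All EPO arrays were above all saline arrays, and saline overlapped sham. EPO minus saline was 0.90 ± 0.17, or 1.86-fold, EPO minus sham was 1.34 ± 0.17, and saline minus sham was 0.44 ± 0.17. Without the 6 steep arrays, saline minus sham for Mas1 was 0.01, with 1 saline array left. Mas1 with EPO was 0.80 ± 0.17 higher at 6 h than at 2 h, and with saline the difference was -0.12 ± 0.17 with overlapping arrays.

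Among the members, the smallest EPO-minus-saline difference whose groups did not overlap at 6 h was that of Plk2 (0.06), followed by Crem (0.23), and the members with overlapping groups were Npas4 (0.47) and Homer1 (-0.03). Slides 2, 3 and 5 each held 1 array of each treatment at 6 h. On slide 2 the EPO-minus-saline difference was 1.40 for Arc, 0.66 for Nptx2 and 0.78 for Mas1. On slide 3 it was 0.73 for Arc, 1.47 for Nptx2 and 1.39 for Mas1. On slide 5 it was 0.58 for Arc, 0.11 for Nptx2 and 0.52 for Mas1. The sign was positive on all 3 slides for 7 of the 9 members, and slide 5 gave the smallest difference for those 7. These are the arrays of the comparison that chose the members, so nothing is read from that count. It uses the brighter probe of a gene, and on the other Nptx2 probe slide 5 gave -0.03. Both arrays of the slide 5 pair were steep in spike-in response, as was the saline array of slide 2, and neither array of slide 3 was. For Npas4 the slides gave 1.56, -0.81 and 0.67. Without the 6 steep arrays the difference was 1.13 for Arc, 1.30 for Nptx2 and 1.29 for Mas1, with 2 EPO arrays and 1 saline array left. The part of slide and spike-in response in the result was not tested.

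**Figure D4:**
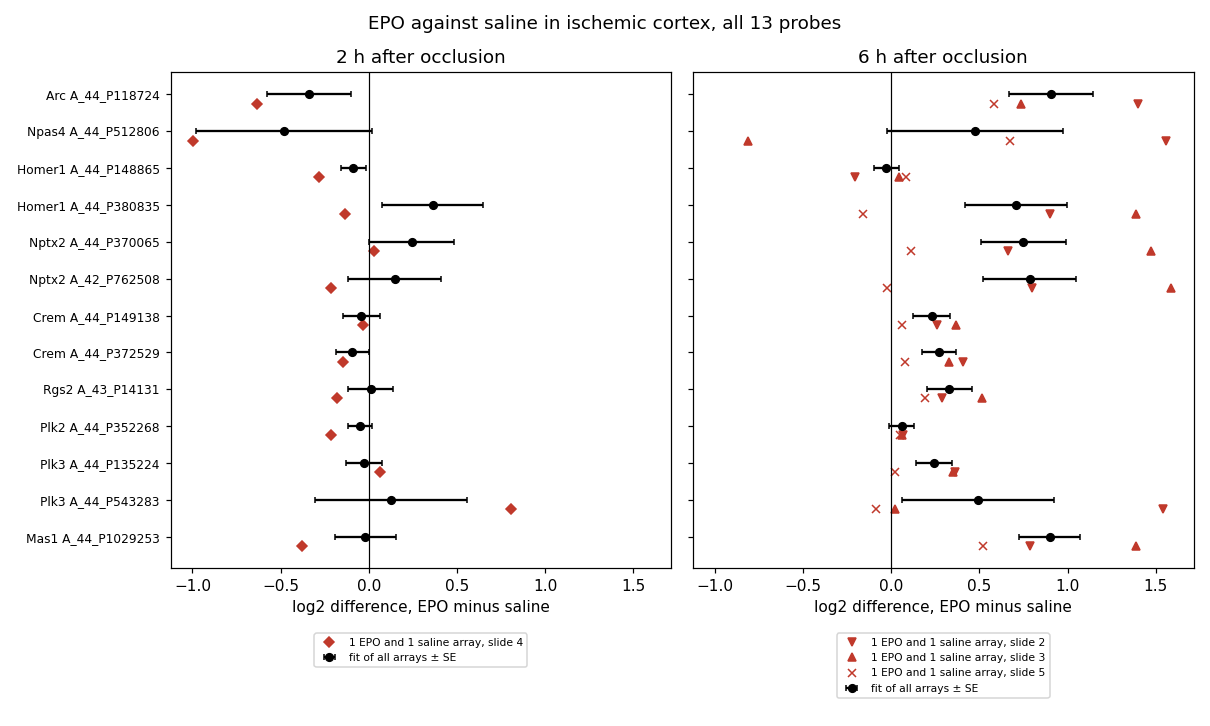
Log2 difference of EPO minus saline in ischemic cortex for all 13 probes at 2 h (left) and 6 h (right). Black circles are the fit of all arrays with its SE, and red symbols are single pairs of arrays on one slide. At 6 h most fitted values lie above 0 and the slide 5 pairs lie lowest for 7 of the 9 genes.

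The genes whose pattern over the 18 arrays was most like each member were named by Pearson's r. These values are descriptions over arrays that share the step between sham and ischemia. The pattern of Arc was nearest to that of Ier2 (r = 0.98), C3h11orf96 (0.96) and Dusp5 (0.96), that of Npas4 to Fos (0.97), Junb (0.97) and Ier2 (0.97), and that of the brighter Crem probe to Fos (0.98), Egr4 (0.97) and C3h11orf96 (0.97). Nptx2 was nearest to Icam1 (0.96), Jak2 (0.96) and Tpm1 (0.96), Mas1 to Bdnf (0.95), Mustn1 (0.93) and Irs2 (0.91), and the other Homer1 probe to Uap1 (0.94), Bdnf (0.94) and Midn (0.94). Rgs2 was nearest to Phlda1 (0.97), Atf3 (0.97) and Pvr (0.97), and Plk3 to Phlda1 (0.98), Ier3 (0.98) and Ccl3 (0.97). Plk2 was less alike its nearest genes, Kcnj8 (0.91), Ptafr (0.90) and Btg1 (0.88), and the brighter Homer1 probe had 0.84 for Vps41, 0.84 for Lage3 and 0.83 for Mrpl1. The other Homer1 probe and Nptx2 had r = 0.94 over the 18 arrays and 0.70 after the group means were removed. For Arc and Npas4 these were 0.93 and 0.46, and for Arc and Crem 0.92 and -0.10.

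Other genes of the same biology were read from 4 lists. Of 29 other activity-regulated genes tested (Inhba was not), 11 rose at 2 h with EPO (1% of all probes) and 11 with saline (0.898% of all probes), with 0 lower, and the median difference was 0.39 and 0.34. Gadd45g, a regulator of DNA demethylation and stress signalling, was higher by 1.62 ± 0.17 with EPO (adjusted p = 0.000156) and by 1.85 ± 0.17 with saline (adjusted p = 5.99e-05). Sik1, a salt-inducible kinase that restrains CREB coactivators, was higher by 1.25 ± 0.13 with EPO (adjusted p = 0.000182) and by 1.29 ± 0.13 with saline (adjusted p = 0.000141). Ptgs2, the inducible cyclooxygenase, was higher by 2.19 ± 0.24 with EPO (adjusted p = 0.000287) and by 2.06 ± 0.24 with saline (adjusted p = 0.000471). At 6 h, 17 of the 29 were called higher with EPO (6.53% of all probes) and 13 with saline (4.79% of all probes), with 0 lower. EPO against saline called 0 of the 29 at either time in limma. An unadjusted p under 0.05 was found for 0 at 2 h (1.33% of all probes) and 9 at 6 h (4.13% of all probes). The 6 h comparison is the one that chose the members, and the list was chosen with earlier results known. Nothing is therefore read from the 9. The 17 and 13 called against sham at 6 h share arrays with that comparison and are a description too. Without scaling between arrays the 2 h counts against sham were 5 with EPO and 4 with saline, and the 6 h counts 12 with EPO and 8 with saline. For saline against sham at 6 h, the 1372 probes called higher and 1792 lower became 1462 and 1140 with quantile normalization, and 849 and 416 without scaling, so the shares called at 6 h depend on the scaling. In sham cortex Gadd45g (-1.06, adjusted p = 0.0155) and Errfi1 (-0.70, adjusted p = 0.00569) were lower at 6 h than at 2 h, and 0 of the 29 were called without scaling.

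The paralogs of the members mostly did not pass the test at 2 h. Of 20 family relatives tested (Plk4 and Agtr2 were not), 1 rose with each treatment, Rgs4, a regulator of G protein signalling that the list above also holds, by 0.60 ± 0.11 with EPO (adjusted p = 0.0117) and 0.53 ± 0.11 with saline (adjusted p = 0.0269). Without scaling the call was not of Rgs4 but of Plk1, lower, with each treatment. The next smallest p-values were those of Plk1, at -0.40 ± 0.12 with EPO (adjusted p = 0.145) and -0.43 ± 0.12 with saline (adjusted p = 0.116), and Rgs1, at 0.67 ± 0.24 with EPO (adjusted p = 0.267) and 0.81 ± 0.24 with saline (adjusted p = 0.159). At 6 h the calls with EPO were Rgs1 (2.64), Rgs3 (0.38), Atf1 (0.36) and Rgs8 (0.35), all higher, or 4 of 20 where 6.53% of all probes were called higher. With saline Rgs1 (2.60) was higher and Rgs5 (-0.31) lower, 1 of 20 each way, where 4.79% of all probes were called higher and 6.26% lower. Of these, limma called Rgs1 alone without scaling, with either treatment. In sham cortex Homer3 (0.42, adjusted p = 0.0414) was higher at 6 h than at 2 h. The list's median at 2 h was -0.06 with EPO and -0.08 with saline, close to that of all probes.

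The genes that carry the activity signal, such as glutamate receptors, calcium channels, calmodulin kinases and CREB cofactors, gave limma calls for 0 of 18 genes at 2 h with either treatment, with 4 at an unadjusted p under 0.05 with each, where 12% of all probes were so with EPO and 11.6% with saline (Crtc1 and Mef2c were not tested). Without scaling limma called 1 of them, Grin2b with saline. The smallest unadjusted p-values belonged to Grin2b, an NMDA receptor subunit, at 0.55 ± 0.15 with EPO (adjusted p = 0.105) and 0.63 ± 0.15 with saline (adjusted p = 0.0591), and to Ep300, a histone acetyltransferase, at -0.24 ± 0.07 with EPO (adjusted p = 0.117) and -0.23 ± 0.07 with saline (adjusted p = 0.129). The third was Srf with EPO (0.20 ± 0.07, adjusted p = 0.21) and Camk4 with saline (0.24 ± 0.07, adjusted p = 0.145). At 6 h Srf, 1 of the 18, was called higher with EPO (0.54) and saline (0.30), and Ep300 lower with EPO (-0.30) and saline (-0.32). Of all probes 6.53% were called higher with EPO and 4.79% with saline, and 9.59% and 6.26% lower. Srf was also called without scaling and Ep300 was not.

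The partners and synaptic targets of the members, such as AMPA and metabotropic glutamate receptors and postsynaptic scaffolds, gave limma calls for 0 of 18 genes at 2 h. An unadjusted p under 0.05 was found for 3 with EPO and 4 with saline, where 12% and 11.6% of all probes were so. Without scaling 1 was called, Shank3, lower with EPO. The smallest unadjusted p-values were those of Shank1 (-0.19, adjusted p = 0.253), Dnm2 (-0.76, adjusted p = 0.347) and Dlgap1 (-0.25, adjusted p = 0.358) with EPO, and of Dlg4 (-0.31, adjusted p = 0.325), Shank2 (-0.20, adjusted p = 0.356) and Dnm2 (-0.72, adjusted p = 0.393) with saline. At 6 h, 4 were lower with EPO, the AMPA receptor subunit Gria2 (-0.42), Dlgap1 (-0.38), Itpr1 (-0.36) and Shank2 (-0.33), where 9.59% of all probes were called lower. With saline 3 were lower, Gria2 (-0.36), Shank2 (-0.33) and Itpr1 (-0.32), where 6.26% of all probes were called lower. Quantile normalization called the same 4 and 3 genes, and without scaling 3 were lower with EPO (Gria2, Itpr1 and Shank3) and 0 with saline. EPO against saline called 0 in any of these lists.

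The tissue held the markers of cortex: all 8 neuron markers, all 5 astrocyte markers and all 4 oligodendrocyte markers were well above background on every array. All 8 markers of striatal neurons were above background on every array too. At 6 h, 4 of the 8 neuron markers were lower than sham with EPO, Neurod6 (-1.05), Rbfox3 (-0.49), Syt1 (-0.37) and Snap25 (-0.22), and 3 with saline, Neurod6 (-0.81), Syt1 (-0.26) and Snap25 (-0.24), where 9.59% of all probes were called lower with EPO and 6.26% with saline. Without scaling 2 of the 8 neuron markers were called lower at 6 h with EPO (Neurod6 and Rbfox3) and 1 with saline (Neurod6). The mean level of the neuron list ran between 2.01 and 2.08 with EPO, 2.01 and 2.12 with saline, and 2.29 and 2.31 in sham cortex at 6 h. The mean level of the striatal list at 6 h ran between 0.53 and 1.04 with EPO, 0.59 and 0.82 with saline, and -0.12 and 0.39 in sham cortex. Of its 8 genes, 5 were called higher than sham with EPO (Penk, Adora2a, Drd2, Rgs9 and Ppp1r1b) and 2 with saline (Adora2a and Ppp1r1b), where 6.53% of all probes were called higher with EPO and 4.79% with saline, and 0 at 2 h. Without scaling 1 of the 8 was called with EPO and 0 with saline. Penk is also among the 29 activity-regulated genes above. Of the 3 neutrophil markers tested (Mpo was not), S100a8 and Il1r2 were higher at 6 h with EPO (1.64 and 1.75) and with saline (1.93 and 1.77). Of the 5 endothelial markers 3 were lower at 6 h with each treatment, against the same 9.59% and 6.26% of all probes. Without scaling 1 was lower with EPO and 2 with saline. Astrocyte genes gave 1 call, higher with EPO at 6 h, and 0 without scaling. Microglia and macrophage genes gave 1 higher and 1 lower call with each treatment at 6 h, and without scaling only the lower one. Oligodendrocyte genes gave 0, and without scaling 1, higher with saline at 6 h. With the 75th percentile scaling no marker of these 7 lists was called at 2 h or between EPO and saline at either time, while quantile normalization called S100a8 and Il1r2 higher at 2 h with each treatment and Syt1 lower with saline. The part of these cell types in the members' differences was not tested.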

How the data were processed

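Cortex RNA of 18 rats was read on 1-colour Agilent arrays. Per the file headers, Feature Extraction 9.1.1.1 wrote a processed intensity for each spot, background-subtracted and on a linear scale. The deposited value table of the authors holds log2 values of it, which equal, to within 5.33e-14, the mean log2 intensity of each probe's spots without scaling between arrays.

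From the intensity the log2 value was taken, outlier-marked spots were left out, spots of a probe were averaged and each array's 75th percentile over non-control spots was subtracted. A probe was tested if all 3 arrays of some group had it well above background, which kept 28634, and 345 probes without a usable spot on some array were dropped. Comparisons used limma 3.58.1 in R 4.3.3 (package data.table, version 1.17.8, and statmod 1.5.0), 1 model of group means over 18 arrays (12 residual degrees of freedom), two-sided moderated tests and Benjamini-Hochberg adjustment over all probes at 0.05. The fit was tested on simulated data. Figures used matplotlib 3.10.9 with pandas 2.3.3 in Python 3.11.15.

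The members, the gene lists and the tests were chosen with earlier results of these data known, including the 2 h rise of several members, so that rise is no independent support. Named genes are all 9 members, per list up to 3 genes of smallest unadjusted p in each 2 h comparison with sham, genes behind counts of 5 or fewer (in part given as counts, and 1 call at 6 h is not reported here), and the 3 genes of highest Pearson r per member. Replicate numbers were checked as pairs, by the correlation of deviations from the group means. The 3 same-numbered pairs of EPO and saline at 2 h all correlated above 0.1 (0.887, 0.654 and 0.635), and were taken as pairs there. In no other comparison did every pair do so. Replicate 1 was the only steep array of the EPO group and of the saline group at 2 h. The correlation therefore does not show that animals were paired. Replicate numbers entered only the replicate block setting, not the main fit. Alternatives varied scaling, background correction, filter, slide, replicate block, arrays in the fit, probe choice and spike-in class, and left out each array.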

Additional observations from a re-analysis of the deposited data

How the results depend on the processing

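The 2 h calls of members rested on the shared spread of all 18 arrays. Fitted on the arrays of the 2 groups compared alone, the calls were 0 of 9 for EPO-treated ischemia against sham and 2 for saline-treated ischemia against sham. For EPO-treated ischemia against sham there were 5 calls without scaling between arrays and 5 with slide as a fixed block, and between 5 and 7 with each array left out in turn, 5 without EPO replicate 2. With saline the calls stayed at 7 with each array left out. Without scaling between arrays the saline calls of Plk2 (0.39, adjusted p = 0.247) and Mas1 (0.93, adjusted p = 0.0573) were lost. EPO against saline at 2 h gave 0 under every setting run, including the replicate block. Under the replicate block Nptx2 with EPO lost its call at 2 h (1.09, adjusted p = 0.0711). The median difference of the members from sham with saline at 6 h was 0.84 with the median of a gene's probes, which brings in the dimmer Plk3 probe. It ran between 0.99 and 1.17 with each array left out. The probes above background on all 18 arrays do not include Npas4.

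In the comparisons that were tested, signs turned only for differences that were not called. In EPO against saline at 2 h these were Rgs2 (-0.026 without scaling), Crem (0.021 with slide as a fixed block), Plk3 (0.059 with slide as a fixed block, 0.049 with the median of probes, 0.067 without the 6 steep arrays) and Homer1 (0.14 with the median of probes). With each array left out in turn, Rgs2 ran between -0.064 and 0.059, Plk3 between -0.10 and 0.033, Crem between -0.11 and 0.0096, Plk2 between -0.11 and 0.0095 and Mas1 between -0.15 and 0.13. For Homer1 in EPO-treated ischemia against sham at 2 h the value was -0.031 with quantile normalization, -0.11 without scaling, -0.059 with slide as a fixed block, -0.015 with slide as a random block, -0.0077 with the class of spike-in slope, -0.064 without the steep arrays and between -0.064 and 0.041 with each array left out. In sham at 6 h against 2 h, Npas4 was 0.29 with quantile normalization, Homer1 -0.033 with slide as a fixed block and -0.089 with the median of probes, and Rgs2 -0.0058 without scaling, -0.010 with the class of spike-in slope and -0.11 without the steep arrays. Without the steep arrays Arc was -0.048 and Nptx2 -0.11 there, and with each array left out Arc ran between -0.049 and 0.22, Nptx2 between -0.11 and 0.31 and Rgs2 between -0.11 and 0.14. At 6 h, where differences carry no test, signs turned for Homer1 and Npas4. Over all settings Homer1 against sham ran between -0.18 and 1.07 with EPO and between -0.14 and 0.73 with saline. EPO minus saline at 6 h ran between -0.07 and 0.34 for Homer1 and between -0.31 and 0.86 for Npas4. Against sham at 6 h the sign of Homer1 held under 17 of 18 settings with each treatment. The highest Homer1 values, 1.07, 0.73 and 0.34, came with the median of a gene's probes, which averages its pair of probes. For Npas4 the -0.31 was the value without the 6 steep arrays. The cause of the other changes of sign was not tested. No scaling moved the median of all probes by up to 0.11 against the 75th percentile (EPO-treated ischemia against sham at 2 h, -0.18 and -0.07), and quantile normalization gave 0.01 there. Leaving out the 6 steep arrays was chosen after seeing the data. Depth here is signal over background, which limits Npas4 in sham cortex and the dimmer Plk3 probe.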
